A study of Homo sapiens with 3 samples.

Results

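The HOX genes lie in 4 clusters, and the binding sites of the transcription factors ΔNp63α and ZNF148 were read out across all 4 in FaDu, an established line of squamous carcinoma cells from the pharynx. Binding was mapped by ChIP-seq, which sequences the DNA fragments that an antibody recovers with its protein. The series has 3 samples of untreated FaDu cells: 1 library made with an antibody against ΔNp63α (called p63 here), 1 with an antibody against ZNF148 and 1 input library without antibody, which has no peak list used here. The cells carry no transgene or knockout named in the labels, and 1 cell line was used, so the values describe that line. Each antibody has 1 peak list and no replicate list, so replicate error cannot be estimated and no p-value is given.

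A member is a row of either peak list whose summit, the position of highest signal, falls in 1 of 4 windows of the hg19 genome. The windows are chromosome 7 from 27080000 to 27300000 for HOXA, chromosome 17 from 46560000 to 46860000 for HOXB, chromosome 12 from 54280000 to 54500000 for HOXC and chromosome 2 from 176900000 to 177100000 for HOXD. They hold 124 of the 61170 rows on chromosomes 1 to 22 and X, namely 12 of 21708 p63 rows and 112 of 39462 ZNF148 rows. Membership depends on position alone, but the windows were chosen with earlier results of these data known. Each summit carries the authors' own fold enrichment, a ratio over local background, and a q value, given as −log10 q. Read depth is unknown from the lists.

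HOX genes encode homeodomain transcription factors that set positional identity along the body axis. Within a cluster, the genes with low numbers act towards the head and those with high numbers towards the tail, and adult epithelia keep a HOX pattern that depends on where in the body they lie. p63 belongs to the p53 family and maintains the basal cells of stratified epithelia, while ZNF148, a protein with zinc fingers, recognises GC-rich DNA. The RefSeq gene table (assembly GRCh38.p14) lists 39 protein-coding HOX genes, with 11 in HOXA, 10 in HOXB, 9 in HOXC and 9 in HOXD. In that table EVX1 neighbours the HOXA13 end of its cluster and EVX2 the HOXD13 end. The table belongs to another build than the peaks, so no peak was assigned to a gene and all peaks are given by position.

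Promoter sequences are shown to give an idea of the C-rich and G-rich runs found in this gene family. They come from RefSeq on GRCh38.p14, cannot be set beside the hg19 peaks, and say nothing about binding. The table held a promoter for 20 of the 39 genes. For 17 promoters, those that end at the outermost start of their gene, the 250 bases before the start were searched for CCCCTCCC on either strand, a run of the GC-rich kind. These 17 were 9 of HOXA, 6 of HOXD and 1 each of HOXB and HOXC, so HOXB and HOXC were hardly searched. The run was present in 3 of the 17 HOX promoters (17.6%), at HOXA4, HOXA11 and HOXD8. The share was 12.6% of 24747 promoters treated the same way, and no difference is read from 17 promoters. The promoter with the most matches in HOXA and the one with a match in HOXD follow, with the matches in capitals, for HOXA4 at chr7:27130758-27131007 on the minus strand and for HOXD8 at chr2:176129455-176129704 on the plus strand.
HOXA4: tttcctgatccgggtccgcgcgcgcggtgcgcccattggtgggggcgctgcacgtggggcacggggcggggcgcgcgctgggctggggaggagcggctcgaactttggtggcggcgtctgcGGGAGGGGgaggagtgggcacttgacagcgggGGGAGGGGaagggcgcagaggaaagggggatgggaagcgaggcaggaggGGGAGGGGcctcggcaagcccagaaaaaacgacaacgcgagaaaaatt
HOXD8: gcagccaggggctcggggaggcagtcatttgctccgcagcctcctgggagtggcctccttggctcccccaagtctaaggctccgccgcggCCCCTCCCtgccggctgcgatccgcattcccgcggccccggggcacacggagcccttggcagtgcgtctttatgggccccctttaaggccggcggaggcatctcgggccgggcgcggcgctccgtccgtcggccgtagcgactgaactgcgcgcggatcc
HOXA4 holds 3 matches, all as GGGAGGGG, the reverse complement, and HOXD8 holds 1.

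ZNF148 summits were denser in all 4 HOX windows than over their list. The p63 summits were too few to tell their density from that of their list. The HOXC window had 31 ZNF148 summits, or 141 per Mb (exact Poisson 95% interval 95.7 to 200.01). HOXB followed with 40 summits (133 per Mb, 95.3 to 182), HOXA with 26 (118 per Mb, 77.2 to 173) and HOXD with 15 (75 per Mb, 42.0 to 124). The whole ZNF148 list had 13.4 per Mb, counted over the stretch between the first and last peak of each chromosome. The windows together, at 119 per Mb, were thus 8.90 times as dense (7.33 to 10.7). The lower bound in each of the 4 windows lay above the density of the list. These intervals cover counting error only, and those of all 4 clusters overlap, so an order among the clusters is not shown.

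For p63 the counts were 4 in HOXA (18.2 per Mb, 4.95 to 46.6), 4 in HOXB (13.3 per Mb, 3.63 to 34.1), 3 in HOXD (15 per Mb, 3.09 to 43.8) and 1 in HOXC (4.55 per Mb, 0.115 to 25.3). Together they came to 12.8 per Mb against 7.36 per Mb over the p63 list, a ratio of 1.73 whose interval, 0.896 to 3.03, includes 1. Among summits with a fold of 10 or more the p63 ratio was 0.891 (0.243 to 2.28), from 4 summits. With a −log10 q of 10 or more it was 1.77 (0.882 to 3.16), from 11 summits. Its side of 1 thus depends on how weak peaks are removed. Every cluster's p63 interval included the density of the list. ZNF148 thus supplied 112 of 124 summits in the windows, or 90.3% (95% Wilson interval 83.8 to 94.4%), against 64.5% over both whole lists. The ZNF148 summits per p63 summit were 5 in HOXD, 6.5 in HOXA, 10 in HOXB and 31 in HOXC, and 1.82 over the lists. The HOXC value rests on 1 p63 summit and was 7, from 35 and 5 summits, with 50 kb added on each side of the window. The length of a list also varies with sequencing depth and background, so this ratio does not compare the number of molecules bound. When the ZNF148 list was shortened to the 21708 most significant rows, the length of the p63 list, 74 ZNF148 summits remained in the windows, or 6.17 per p63 summit, and their density was 10.7 times that of the shortened list (8.40 to 13.4).

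**Figure D1:**
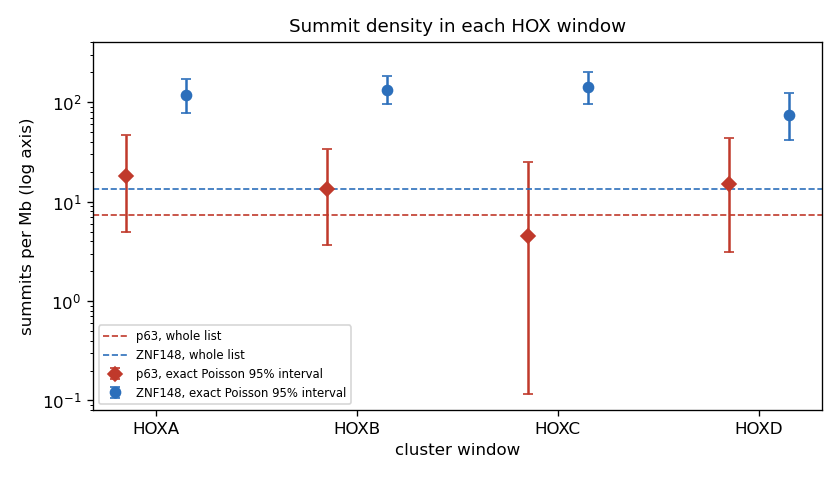
Summits per Mb in each HOX window (log axis), with exact Poisson 95% intervals for counting error; dashed lines give the density over each whole list. All 4 ZNF148 intervals lie above the ZNF148 line at 13.4 per Mb, while the p63 intervals include the p63 line at 7.36 per Mb.

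Set beside adjoining windows of the same length over chromosomes 1 to 22 and X that held any peak, the HOX windows stood near the top for ZNF148. As many ZNF148 summits as in HOXB or more were found in 34 of 8604 windows of 300 kb (0.395%). The figures were 48 of 11093 windows of 220 kb for HOXC (0.433%), 89 of 11093 for HOXA (0.802%) and 360 of 11905 windows of 200 kb for HOXD (3.02%). The median window of these lengths held 2 or 3 ZNF148 summits. For p63, 15.4% of windows reached the count of HOXA, 24.4% that of HOXB, 24.8% that of HOXD and 83.0% that of HOXC. HOX windows were not the densest of either list, since other windows of 300 kb held up to 62 ZNF148 summits and 28 p63 summits. These shares describe the lists and are not a test.

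Within HOXA, the ZNF148 summits formed a single block. From 27135956 to 27213073, 25 of the 26 summits followed each other at gaps of no more than 12.5 kb, over 77.1 kb. The first 56.0 kb of the window held none, and a gap of 69.6 kb separated the block from the last summit, at 27282641. All 4 p63 summits lay inside the block. The strongest ZNF148 peak of any HOX cluster was here, at 27170246 to 27170864, with a fold of 103.1 and a −log10 q of 301, which placed it 18th of 39462. The next by q were both summits of the same interval of 1330 bp, at 27152840 to 27154169. One had a fold of 46.7 and a −log10 q of 113, and the other 33.8 and 79.7, and the remaining summit of the interval had a fold of 20.9. This was the longest interval among the HOX members.

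The p63 peaks of HOXA all had folds below 10. The one at 27151287 to 27151464 had a fold of 9.39 and a −log10 q of 17.8, and its summit lay 295 bp from a ZNF148 summit of fold 22.5. At 27194733 to 27194989 the fold was 6.18 and the −log10 q 7.16, the lowest of the 12 p63 members, with a ZNF148 summit of fold 9.26 at 513 bp. The peak at 27205102 to 27205262 had a fold of 8.39 and a −log10 q of 12.7, with a ZNF148 summit of fold 12.3 at 900 bp. The last, at 27210864 to 27211073, had a fold of 7.06 and a −log10 q of 17.7, with a ZNF148 summit of fold 28.6 at 1196 bp. In each of these 4 places the ZNF148 summit had the higher fold, and none of the intervals overlapped. Folds come from separate libraries and depend on the background of each.

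In HOXB the ZNF148 summits fell into 2 large blocks and a scatter beyond them. The first block held 12 summits over 34.9 kb, from 46599540 to 46634443, and the second 21 over 55.9 kb, from 46653949 to 46709817. A group of 3 lay at 46800511 to 46806469. The most significant ZNF148 summit was in the interval at 46681302 to 46681906, with a fold of 47.3 and 124 as −log10 q. Next came summits at 46687226 to 46687900 (fold 27.9, −log10 q 68.7) and at 46800259 to 46800977 (fold 25.01, −log10 q 53.5). All 3 of these intervals held 2 summits.

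HOXB also contained the strongest p63 peak of the HOX clusters, at 46755897 to 46756204, with a fold of 38.7 and a −log10 q of 124 (rank 3189 of 21708). It stood outside the ZNF148 blocks, 105 kb from the previous p63 summit. It overlapped a weak ZNF148 peak at 46756023 to 46756223, with a fold of 5.91 and a −log10 q of 6.61, by 182 bp, and the summits were 57 bp apart. The other p63 peaks of HOXB were at 46601678 to 46601881 (fold 8.83, −log10 q 13.9), 46607117 to 46607282 (fold 5.65, −log10 q 11.5) and 46650776 to 46650932 (fold 7.23, −log10 q 11.2). Their nearest ZNF148 summits were 2244, 473 and 3087 bp away. The first and the second lay inside the first ZNF148 block, and the third in the space between the blocks.

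HOXC was rich in ZNF148 and had a single p63 peak. Its largest ZNF148 block held 19 summits over 45.5 kb, from 54368123 to 54413603, and smaller ones of 5 and 4 summits lay to either side. The most significant ZNF148 peaks stood next to each other at the end of that block. The interval at 54412491 to 54413166 had a fold of 57.0 and a −log10 q of 145, and the neighbouring 999 bp interval at 54411237 to 54412235 had summits of fold 45.5 (−log10 q 109) and 28.9. The third by q was at 54448352 to 54448787, with a fold of 35.6 and a −log10 q of 85.6. The p63 peak was near this one, at 54445213 to 54445405, with a fold of 11.5, a −log10 q of 21.4 and a distance of 3292 bp between summits. Apart from 3, the ZNF148 summits of HOXC lay 18731 bp or more from the nearest p63 summit in or outside the window.

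HOXD was the cluster with the fewest ZNF148 summits and the one where both proteins met at a strong site. A block of 9 ZNF148 summits covered 15.3 kb, from 176957968 to 176973226. Near its end the p63 peak at 176971296 to 176971582 had a fold of 29.9 and a −log10 q of 107. It overlapped by 239 bp the most significant ZNF148 peak of HOXD, at 176971344 to 176971781, with a fold of 30.6 and a −log10 q of 70.2. The summits were 84 bp apart. By q value the p63 summit ranked 3911 of 21708, within the top 18.0% of its list, and the ZNF148 summit 3918 of 39462, within the top 9.93%. The other ZNF148 peaks highest by q were at 177012819 to 177013100 (fold 22.4, −log10 q 43.4) and 176957837 to 176958076 (fold 17.9, −log10 q 37.1).

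The second p63 peak of HOXD, at 177013667 to 177013898, had a fold of 12.4 and a −log10 q of 29.8 and lay 833 bp from the ZNF148 peak of fold 22.4. The third, at 177043082 to 177043280, had a fold of 9.58 and a −log10 q of 24.9. It came 2570 bp after the last of 4 ZNF148 summits spread over 12.0 kb, whose folds were 5.77 to 8.75. The first 58.0 kb and the last 59.4 kb of the HOXD window held no ZNF148 summit, and the p63 summits left 71.4 and 56.8 kb free at the same ends.

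**Figure D2:**
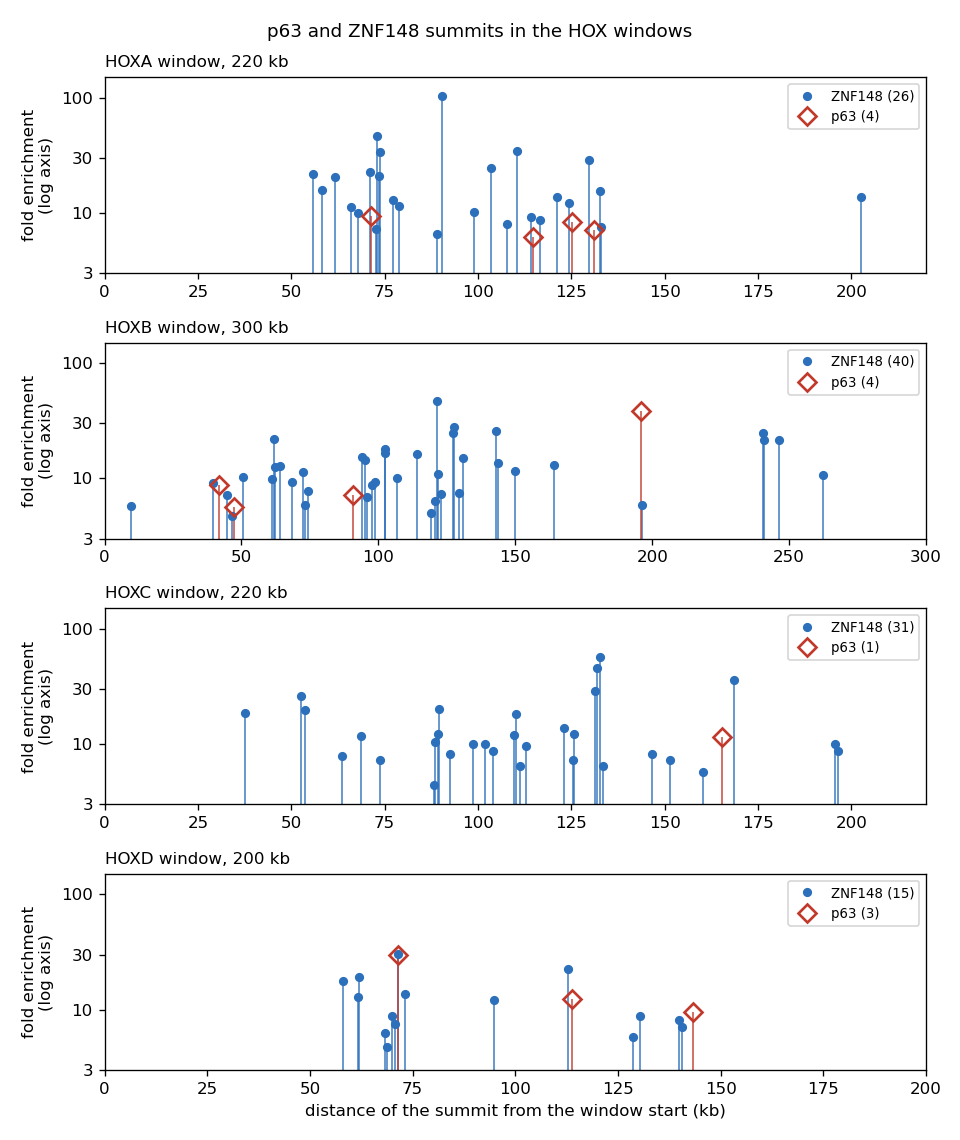
Position of each summit from the start of its window (kb) against its deposited fold enrichment (log axis), with filled circles for ZNF148, open diamonds for p63 and counts in the legend. The ZNF148 summits of HOXA form a block of 77.1 kb, and the p63 diamonds above 20 in fold are 1 in HOXB, at 38.7, and 1 in HOXD, at 29.9.

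The ZNF148 summits of the clusters were closely spaced. Short gaps and runs go with the high density given above, so they are not a result separate from it. The median gap between neighbouring ZNF148 summits was 2878 bp in the windows (108 gaps), against 22170 bp over the list. By cluster it was 1798 bp in HOXD, 1996 bp in HOXB, 3026 bp in HOXC and 3076 bp in HOXA. Of the 112 ZNF148 summits, 102 belonged to runs of 3 or more with gaps of no more than 12.5 kb, or 91.1% (84.3 to 95.1%), against 39.3% of the list. Intervals with more than 1 summit held 19 of the 112 (17.0%, 11.1 to 24.98%), against 7.43% of the list. These were 9 intervals, of which 4 were in HOXB, 3 in HOXC and 1 each in HOXA and HOXD. Of the 12 p63 summits, 3 were in such a run, all in HOXA (25%, 8.89 to 53.2%). The share of the p63 list, 9.89%, lies inside that interval. None was in an interval with several summits, which hold 1.7% of the p63 list.

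In strength, the p63 members were below their list on the median. The ZNF148 members were slightly above theirs, but the 2 ZNF148 medians were not clearly told apart. The 12 p63 members had a median fold of 9.11, with quartiles of 7.19 and 11.7, against 13.2 (8.39 and 24.3) for the whole list. A fold of 10 or more was reached by 4 of 12 (33.3%, Wilson interval 13.8 to 60.9%), against 64.9% of the list. These 4 were 2 in HOXD and 1 each in HOXB and HOXC. The interval ends a little below the share of the list and rests on 12 summits, so a lower share is not firmly shown. None of the 12 was among the most significant 10.0% of p63 rows, but 0 of 12 allows a share of up to 25%. The ZNF148 members had a median fold of 11.5 (quartiles 8.08 and 18.7), against 10.0 (7.21 and 16.6) for the list. The counting interval of the member median, 10.0 to 13.0, reached down to the list median. With summits that share a peak interval counted once, the member median was 10.6. Its counting interval, 9.38 to 12.9, included the 10.0 of the full list. A fold of 10 or more was reached by 69 of 112 ZNF148 members (61.6%, 52.4 to 70.1%), against 50.1% of the list. Summits of 1 interval and of neighbouring intervals are not independent, so these Wilson intervals are too narrow where members cluster.

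Among the clusters, HOXA had the highest and HOXD the lowest ZNF148 folds on the median, within wide errors. The median fold was 13.7 in HOXA, 11.2 in HOXB, 10.1 in HOXC and 8.75 in HOXD. The share with a fold of 10 or more was 76.9% in HOXA (57.9 to 89.0%), 60% in HOXB (44.6 to 73.7%), 58.1% in HOXC (40.8 to 73.6%) and 46.7% in HOXD (24.8 to 69.9%). All 4 intervals overlap. Among the most significant 10.0% of ZNF148 rows were 4 summits of HOXA, 3 of HOXC and 1 each of HOXB and HOXD. The highest fold in each cluster was 103.1 in HOXA, 57.0 in HOXC, 47.3 in HOXB and 30.6 in HOXD, and the lowest ranged from 4.42 in HOXC to 6.49 in HOXA.

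**Figure D3:**
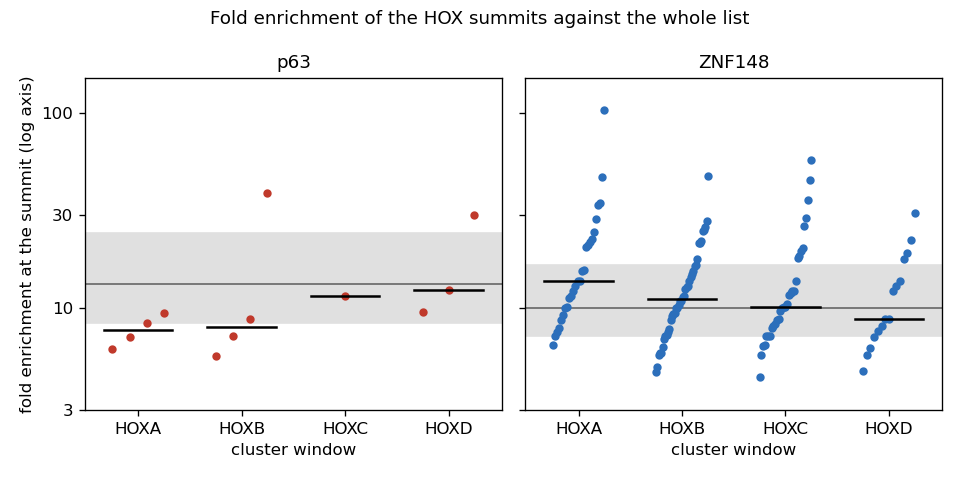
Deposited fold enrichment of each summit (log axis) by cluster, for p63 on the left and ZNF148 on the right, with black bars at cluster medians; the grey band and line are the quartiles and median of the whole list. The p63 members of HOXA lie between 6.18 and 9.39, below the list median of 13.2, and ZNF148 reaches 103.1 in HOXA.

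The p63 summits of the HOX clusters all lay near a ZNF148 summit, and their share of overlapping peaks was close to that of the list. All 12 had a ZNF148 summit within 5 kb, against 38.3% of the p63 list. The 5 kb limit was set with these distances known, so the 12 of 12 follows from that choice and is given without an interval. Their median distance to the nearest ZNF148 summit was 867 bp, with a range of 57 to 3292 bp, against a median of 11638 bp for the list. In these windows the median gap between neighbouring ZNF148 summits was 2878 bp, but the spacing was uneven, with a longest gap of 69.6 kb in HOXA. The part of this spacing in the short distances was not tested. Overlap of intervals was found for 2 of 12, the pairs in HOXB and HOXD (16.7%, 4.70 to 44.8%), against 21.4% of the list, which lies inside the interval. It was 1 of 12 (8.33%) with the shortened ZNF148 list, which no longer holds the weak partner in HOXB. None of the 12 had a ZNF148 summit within 25 bp, against 13.5% of the list, and 0 of 12 allows a share of up to 25% (3 counts of the total, for counting error). With 12 sites, a share lower than that of the list cannot be told from an equal one.

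Seen from ZNF148, the shares are bounded by the small number of p63 summits. Of 112 ZNF148 summits, 2 belonged to a peak that overlapped a p63 peak (1.79%, 0.491 to 6.28%). The share in the list was 11.9%, but with 12 p63 summits in the windows it could reach only 10.7% here if each met 1 ZNF148 summit, so the values are not comparable and no low overlap is read from them. None had a p63 summit within 25 bp, against 7.41% of the list, under the same bound. A p63 summit within 5 kb was found for 31 of 112 (27.7%, 20.2 to 36.6%), near the 26.5% of the list. This share differed between clusters, with 14 of 26 in HOXA (53.8%, 35.5 to 71.2%), 9 of 15 in HOXD (60%, 35.7 to 80.2%), 7 of 40 in HOXB (17.5%, 8.75 to 32.0%) and 1 of 31 in HOXC (3.23%, 0.572 to 16.2%). The intervals of HOXA and HOXD do not overlap those of HOXB and HOXC, but in each cluster the count rests on 1 to 4 p63 summits, so the sites are not independent and this is not a test.

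**Figure D4:**
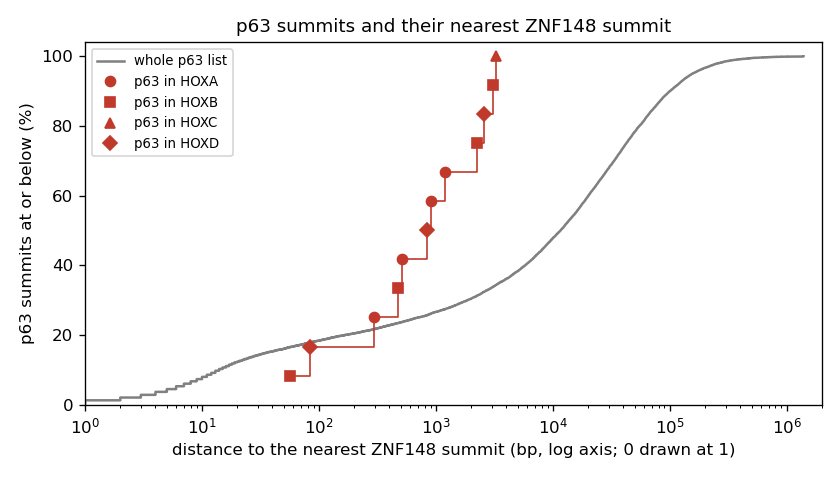
Cumulative share of p63 summits (%) by distance to the nearest ZNF148 summit (bp, log axis), for the 12 HOX members with markers by cluster and for the whole p63 list in grey. All 12 members lie between 57 and 3292 bp, whereas the list has a median of 11638 bp.

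The limits of the windows mattered most for p63 in HOXC. Just before the HOXC window, at 23.03 kb from its start, was a p63 summit of fold 6.11, and a ZNF148 summit of fold 19.4 was at 18.4 kb. With 50 kb added on each side, HOXC gained 4 p63 summits and had 5, HOXA gained 2 and HOXB and HOXD none. After the HOXC end the next p63 summit (fold 16.5) was at 101 kb and the next ZNF148 summit (fold 5.05) at 17.7 kb. The summits nearest the HOXC edges on the inside were ZNF148 summits of fold 18.5 and 8.66.

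At HOXA the nearest outside summits before the start were at 91.6 kb for p63 (fold 22.2) and 176 kb for ZNF148 (fold 16.3). After the end they were at 17.4 kb for p63 (fold 8.39) and 189 kb for ZNF148 (fold 13.0). On the inside, ZNF148 summits of fold 21.9 and 13.7 were nearest to the start and the end. HOXB had outside p63 summits at 355 and 319 kb (fold 11.8 and 8.40) and outside ZNF148 summits at 25.4 and 35.9 kb (fold 14.9 and 13.0). Its own outermost ZNF148 summits, of fold 5.77 and 10.8, lay 9.82 and 37.7 kb inside the edges. Around HOXD the outside p63 summits were at 275 and 238 kb (fold 24.3 and 32.5), and the ZNF148 summits at 77.3 and 34.1 kb (fold 18.2 and 11.9). HOXD's outermost ZNF148 summits had folds of 17.9 and 7.10. The p63 peaks of HOXB and HOXD are thus isolated from other p63 peaks by 238 kb or more beyond the windows on either side.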

How the data were processed

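DNA came from 3 independent ChIP assays per the labels' protocols, with 1 library per antibody. The submitters' processing notes list MACS2 2.2.6, Bowtie2 2.3.4.3, SAMtools 1.7, MultiQC 1.12, FastQC 0.11.9 and the build hg19, without settings. Read filters, duplicate removal and the control library of peak calling were not given in the sources used here.

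Both lists lack a header and follow the narrowPeak column order. For each summit they give the authors' fold enrichment, a ratio to the local background, with −log10 p and −log10 q. The deposited score is the whole part of 10 times −log10 q and was not used. Sites with a −log10 q under 3.01 (p63) or 3.02 (ZNF148) are not listed.

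Every row counted as 1 summit, and positions are 1-based. Overlap meant at least 1 bp. Poisson intervals are exact and shares carry Wilson intervals, all at 95% and for counting error only. List density used the 2949 Mb that the peaks of both lists span, summed over chromosomes. The members, windows and limits were chosen with earlier results of these data known. Named were the 3 rows with the highest −log10 q per cluster, all p63 rows, overlapping pairs and rows at window edges; summits that share an interval with these, or that lie nearest to a p63 summit, were named after their values were seen. Functions were tested on simulated lists. Alternatives were stricter q and fold limits, intervals counted once, other windows, other overlap criteria and lists of equal length. Python 3.11.15, numpy 2.4.6, pandas 2.3.3, scipy 1.17.1 and matplotlib 3.10.9 were used.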

Additional observations from a re-analysis of the deposited data

How the results depend on the processing

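Recomputing gave 64 values, of which 54 lay inside the reported counting interval (for counts and ranks, within 1.5 times) and 10 outside it. Counts, shares, medians and ranks have no direction to change. With a ZNF148 list as long as that of p63, the windows held 74 ZNF148 summits with a median fold of 15.2, and with a −log10 q of 10 or more that median was 13.7. These medians are higher by construction, since weak rows were removed. With summits within 25 bp in place of overlap, the shared portion was 0% for p63 and 0% for ZNF148. With a fold of 10 or more, p63 had 0 summits per Mb in HOXA and 3.33 in HOXB, and ZNF148 had 80 per Mb in HOXB, 81.8 in HOXC and 35 in HOXD. At that limit, ZNF148 in all 4 windows was 10.95 times as dense as in its list (8.52 to 13.9) and p63 0.891 times (0.243 to 2.28). The p63 ratio thus passed from above 1 to below 1, with 1 inside both intervals. With a −log10 q of 10 or more it stayed above 1, at 1.77 (0.882 to 3.16). With windows widened by 50 kb there were 18 p63 and 119 ZNF148 summits. No paired analysis was possible because each antibody has 1 library. Unknown depth limits all counts to sites strong enough to be listed.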
